A study of Mus musculus with 12 samples.

Results

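Of the 56691 genes in the count table, 8 are described here: 5 copies of the *Zscan4* cluster (*Zscan4b*, *Zscan4c*, *Zscan4d*, *Zscan4e* and *Zscan4f*) and 3 genes known from the same embryonic stage, *Zfp352*, *Tdpoz3* and *Tdpoz4*. They were taken by symbol, because *Zscan4e* stood higher in *Alkbh5*-/- (KO) than in wild-type (WT) mouse oocytes when all stages were fitted together. The genotype values of these genes are therefore a description of what selected them, and no p-value is given for them. Changes between meiotic stages played no part in the choice and were tested.

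The series holds 12 RNA sequencing libraries of C57BL/6 mouse oocytes, in 6 groups of 2. Each genotype was sampled at the germinal vesicle (GV) stage, at germinal vesicle breakdown (GVBD) and at metaphase II (MII), by time in culture. Oocytes came from young hormone-primed females, were stripped of their cumulus cells and pooled, and a fixed amount of synthetic ERCC RNA was added to every tube. KO mice carried a deletion of exon 1 of *Alkbh5*, which encodes a demethylase of N6-methyladenosine in RNA, in every cell of the body rather than in oocytes alone. The study describes that most KO oocytes failed to complete GVBD and that few extruded a polar body. A KO library labelled GVBD or MII may therefore hold oocytes of an earlier stage, and genotype and stage reached cannot be told apart there. It also describes KO GV oocytes as smaller, with more nuclei of the non-surrounded nucleolus form, and proposes impaired growth. At GV, genotype and state of growth therefore cannot be told apart either. *Alkbh5* itself had 5355 to 10181 counts in the WT libraries and 54 to 143 in the KO libraries. Total counts, in units of 1e6, were 28.6 to 40.2 per library, of which 221927 to 838409 fell on ERCC sequences. All levels below are counts divided by the ERCC total of the library relative to the mean of the 12 (ERCC-scaled counts), unless raw counts are named. Since each library is a pool, fewer oocytes expressing a gene and less RNA per oocyte cannot be told apart.

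*Zscan4* genes encode proteins with a SCAN domain and zinc fingers. They are best known for a burst of transcription in the mouse 2-cell embryo, when the embryonic genome is first switched on, and for a rare state of embryonic stem cells in which they act on telomeres and genome stability. The transcription factor DUX drives this programme, with DPPA2 and DPPA4 upstream of it, while chromatin repressors such as TRIM28, SETDB1 and the CAF-1 subunits keep it silent. *Zfp352* encodes another zinc finger protein of the 2-cell stage, and the *Tdpoz* genes encode proteins with a TRAF and a POZ domain that are transcribed in early embryos. Oocytes store RNA during growth and then mature with transcription shut down.

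All members are protein-coding in GENCODE M21, on GRCm38. The *Zscan4* members lie on chromosome 7: *Zscan4b* at chr7:10900740-10905050 (minus strand), *Zscan4c* at chr7:11005745-11010547 (plus strand), *Zscan4d* at chr7:11161374-11166159 (minus strand), *Zscan4e* at chr7:11306378-11310682 (minus strand) and *Zscan4f* at chr7:11397915-11402318 (plus strand). *Zfp352* is at chr4:90218820-90225702, *Tdpoz3* at chr3:93826020-93827117 and *Tdpoz4* at chr3:93796398-93797510, all on the plus strand. The *Zscan4* copies with their relatives *Zscan4a* and *Zscan4-ps1* to *Zscan4-ps3* span 819.871 kb, and 41 other annotated genes of this interval are in the table. Of those 41, 28 had 0 counts in all 12 libraries and 29 never exceeded 3 counts. The highest count among the 41 was 3279, of *Gm7789*.

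The promoters of the copies are close to identical, which is shown here because it sets the *Zscan4* members apart from *Zfp352* and *Tdpoz4*. RefSeq promoters of GRCm38.p6 (250 bases before to 50 after each gene start) were found for 6 of the 8 members, the exceptions being *Zscan4e* and *Tdpoz3*. The TATA box letters TATAAA were searched on both strands. They lay on the forward strand upstream of the gene start in all 4 *Zscan4* promoters and in neither of the other 2. Of 32851 promoters of this length, 13.6% hold these letters on either strand. The motif began 31 bases before the gene start in *Zscan4b* and *Zscan4f*, 54 in *Zscan4c* and 65 in *Zscan4d*. Being near copies, these 4 promoters are not independent. The 120 bases ending in this motif are printed 5′ to 3′ on the gene's own strand, with capitals at each base that differs from *Zscan4c*.
Zscan4c, chr7:11005577-11005696, plus strand: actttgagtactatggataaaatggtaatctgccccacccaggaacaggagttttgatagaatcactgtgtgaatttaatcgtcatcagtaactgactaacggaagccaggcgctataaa
Zscan4f, chr7:11397770-11397889, plus strand: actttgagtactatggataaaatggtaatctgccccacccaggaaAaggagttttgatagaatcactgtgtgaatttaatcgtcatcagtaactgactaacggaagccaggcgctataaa
Zscan4d, chr7:11166208-11166327, minus strand: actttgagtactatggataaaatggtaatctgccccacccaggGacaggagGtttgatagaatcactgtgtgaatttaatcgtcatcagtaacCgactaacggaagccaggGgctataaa
Zscan4b, chr7:10905076-10905195, minus strand: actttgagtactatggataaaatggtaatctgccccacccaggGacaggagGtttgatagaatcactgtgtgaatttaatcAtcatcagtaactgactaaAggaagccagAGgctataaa
Against *Zscan4c*, the *Zscan4f* stretch differed at 1 base, the *Zscan4d* stretch at 4 and the *Zscan4b* stretch at 6 of 120.

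Transcripts of the copies are also alike, and the authors kept only reads that mapped to a single place. A read of 150 bases taken whole from *Zscan4d* would fall in no other annotated gene for 87.0% of start positions. The same share was 39.0% for *Zscan4c*, 31.6% for *Zscan4b*, 22.6% for *Zscan4e* and 13.8% for *Zscan4f*. *Zscan4e* shared 88.1% of its 50-base windows with *Zscan4b*, and *Zscan4c* shared 71.4% with *Zscan4-ps2* and 65.3% with *Zscan4f*. Counts of *Zscan4b*, *Zscan4c*, *Zscan4e* and *Zscan4f* thus rest on a minor part of each transcript, and a count of one copy may hold reads of another. *Zfp352* was unique over its whole length (100%) and *Tdpoz4* over 93.5%. The letters GGACT, the usual core in which N6-methyladenosine sits, occurred 1 time in the transcript of each *Zscan4* member, or 0.44 to 0.57 per kb. The median was 1.05 per kb in 53477 protein-coding transcripts. Without the outer 10% at each end, those transcripts ran from 0 to 2.28 per kb, a range that holds the members.

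**Figure D1:**
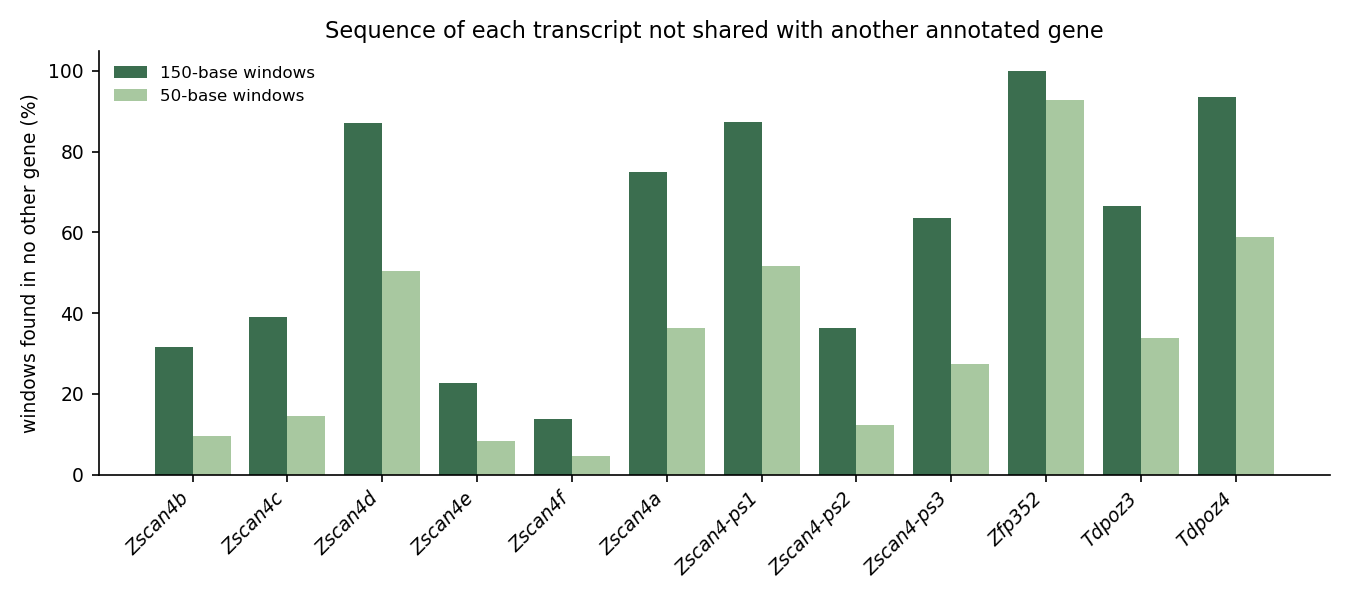
Share of windows along each transcript (y axis, %) that occur in no other annotated mouse gene, for windows of 150 bases (dark bars) and 50 bases (light bars). At 150 bases *Zscan4d* stands at 87.0% and *Zscan4f* at 13.8%.

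*Zscan4c* was the most abundant member in every library and *Zscan4d* the next. In WT GV oocytes, ERCC-scaled counts per kb of exon were 533 ± 110 for *Zscan4c* and 135 ± 22.5 for *Zscan4d* (SD, n = 2). *Zscan4f* followed with 31.0 ± 18.2 and *Zscan4e* with 27.2 ± 16.0 per kb, which did not differ beyond their spread. *Zscan4b* was at 0 in both WT GV libraries. The order in KO GV oocytes was the same for the upper 2 copies, with 1032 ± 709 per kb for *Zscan4c* and 721 ± 527 for *Zscan4d*, values that overlapped. *Zscan4e* then stood at 163 ± 154 and *Zscan4f* at 112 ± 66.3 per kb, again within their spread. Per-kb values use exon length and not the mappable length given above, so they may understate the copies with little unique sequence.

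*Zscan4e*, the gene on which the selection rested, had 28.5 and 69.1 ERCC-scaled counts at the GV stage of WT and 488 and 97.0 at that of KO. At GVBD the WT pair was at 91.2 and 80.6 and the KO pair at 329 and 316, and at MII the WT pair was at 5.58 and 15.4 and the KO pair at 126 and 269. The lowest KO library lay just above the highest WT library. The mean was 48.4 ± 36.4 in WT and 271 ± 144 in KO (SD, n = 6 libraries over 3 stages), a ratio of 5.60. Stage by stage, the ratio of means was 5.99 (GV), 3.76 (GVBD) and 18.8 (MII). The large ratio at MII went with the lowest WT level of any stage, 7 and 32 raw counts in the 2 libraries.

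*Zscan4d* is the copy with the most unique sequence. At GV its ERCC-scaled counts were 271 and 343 for WT against 2485 and 792 for KO. At GVBD they were 420 and 410 against 1304 and 1563, and at MII 94.1 and 102 against 726 and 558. No KO library fell to the level of any WT library, although the KO GV pair was spread over a wide range. The mean was 273 ± 146 in WT and 1238 ± 720 in KO (SD, n = 6), a ratio of 4.53, with stage ratios of 5.34 (GV), 3.46 (GVBD) and 6.56 (MII).

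For *Zscan4f* the GV libraries held 35.6 and 86.0 ERCC-scaled counts in WT and 311 and 128 in KO. The GVBD libraries held 144 and 69.1 against 352 and 285, and the MII libraries 28.7 and 13.0 against 79.1 and 304. Within each stage both KO libraries were above both WT libraries, but the lower KO MII library and the lower KO GV library were below the higher WT GVBD library. The ratio of the means over all stages was 3.88.

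*Zscan4c*, the dominant copy, differed least. Its GV libraries held 1035 and 1390 ERCC-scaled counts in WT and 3490 and 1209 in KO. The GVBD libraries held 1404 and 1087 against 2498 and 2399, and the MII libraries 671 and 426 against 1082 and 1354. The GV groups overlapped, and the ratio of the means over all stages was 2.00. In the selecting fit *Zscan4f* was called, with a fitted log2 difference of 2.20. *Zscan4c*, with 1.03, reached the minimum change of 1 and was not called because of its adjusted p. In other settings of this selecting contrast it was called: without a filter on low counts, with at least 10 counts in every library, with DESeq2 and with the replicate block. The call thus varied with the setting. It describes the contrast behind the selection and carries no test.

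**Figure D2:**
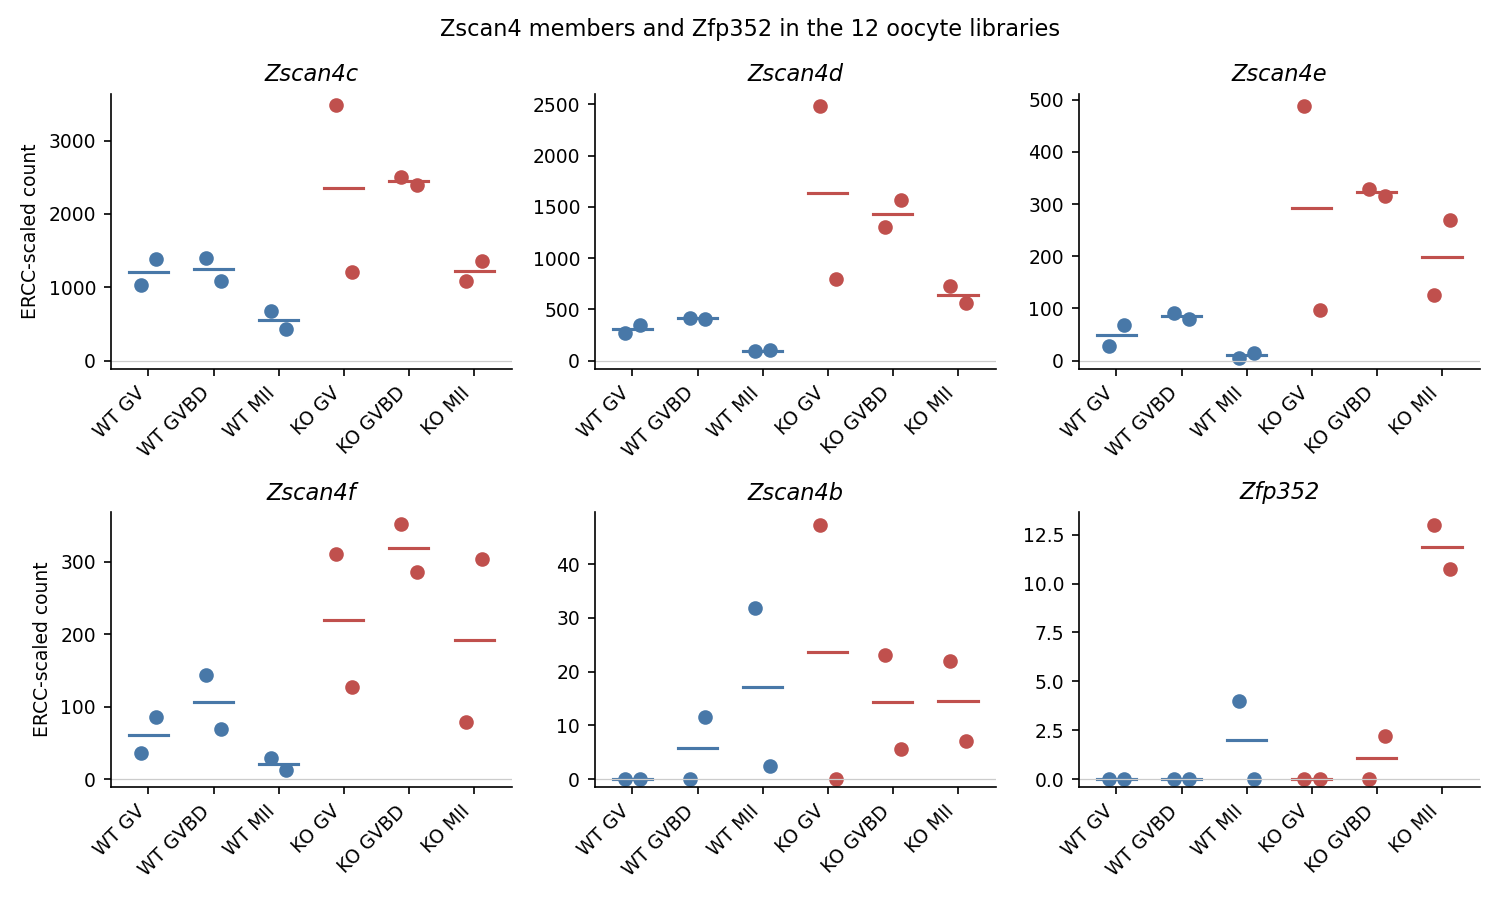
ERCC-scaled counts (y axis, linear) of the 5 *Zscan4* members and *Zfp352* in the 6 groups (x axis). Each point is a library and each short line the mean of 2, blue for WT and red for KO. For *Zscan4d* and *Zscan4e* all 6 KO points lie above all 6 WT points.

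*Zscan4b* and the 3 genes outside the cluster were near the limit of detection. Raw counts of *Zscan4b* were 0 and 0 in WT against 26 and 0 in KO at the GV stage. They were 0 and 13 against 14 and 5 at GVBD, and 40 and 5 against 22 and 10 at MII. The genotypes overlapped at every stage. *Zfp352* had 0 counts in 8 of 12 libraries, 5 in a WT MII library, 2 in a KO GVBD library, and 13 and 15 in the KO MII libraries. *Tdpoz3* had 2 counts in a KO MII library and 0 in the others. *Tdpoz4* had 0 counts in all 12 libraries, which allows up to 3 counts in each. The pools thus held RNA of the *Zscan4* copies and at most 15 counts per library of these 3 genes.

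Of the 8 members, 6 passed the filter on low counts in the fit over all stages, *Zfp352* through its KO MII counts. That fit selected the members, and its outcome is given only as a description: *Zscan4d*, *Zscan4e* and *Zscan4f* were called higher in KO, against 0.9% of 22004 tested genes. All 6 KO libraries were above all 6 WT libraries for 2 members, *Zscan4d* and *Zscan4e*, against 1.09% of tested genes. Within a stage, both KO libraries were above both WT libraries for 3 (GV), 4 (GVBD) and 5 (MII) of the 6 members, where 39.8%, 28.2% and 19.6% of tested genes did so. The shares of tested genes show how often this happens with 2 libraries a group and with KO higher overall: the median log2 difference of all tested genes was 0.29 with ERCC scaling and 0.02 with TMM scaling, which centres the bulk of genes. With TMM scaling, *Zscan4d* alone kept all KO libraries above all WT libraries. The 5 members at MII include *Zfp352*, which was tested only because of its KO MII counts, so that number is partly set by the filter.

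Scaling does not enter a ratio of 2 genes in the same library. Per 100 counts of *Zscan4c*, *Zscan4d* had 14.0 to 37.7 counts in the 6 WT libraries (median 25.4) and 41.2 to 71.2 in the 6 KO libraries (median 65.3). *Zscan4e* had 0.832 to 7.42 (median 4.30) in WT and 8.02 to 19.9 (median 13.2) in KO. The genotypes were apart for both ratios. *Zscan4f* per 100 *Zscan4c* ran from 3.06 to 10.2 in WT and from 7.31 to 22.5 in KO, which overlapped. Put as shares of the 5 members together, *Zscan4c* made up 65.5% to 80.7% of *Zscan4* counts in WT libraries and 51.2% to 55.4% in KO libraries, while *Zscan4d* made up 11.3% to 24.7% and 22.4% to 36.4%. These ratios use the counts that selected the members and carry no test.

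The summed ERCC-scaled count of the 5 *Zscan4* members was 558 to 2058 in WT (median 1513) and 2035 to 6822 in KO (median 3499). The lowest KO library and the highest WT library overlapped narrowly.

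**Figure D3:**
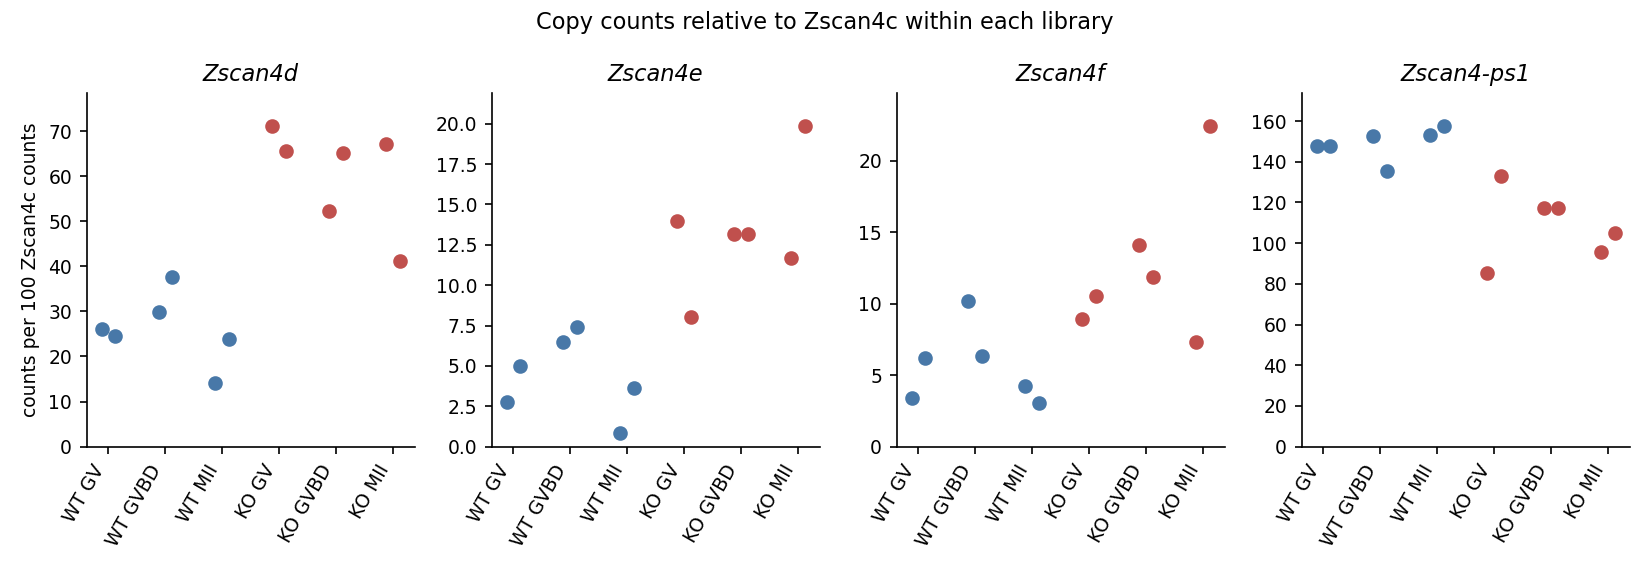
Raw counts of *Zscan4d*, *Zscan4e*, *Zscan4f* and *Zscan4-ps1* per 100 counts of *Zscan4c* in the same library (y axes), by group (x axis), each point a library. WT (blue) and KO (red) do not overlap for *Zscan4d*, *Zscan4e* and *Zscan4-ps1*, which is lower in KO.

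Whether the copies decline during maturation was tested with edgeR's quasi-likelihood test, p-values being adjusted by the Benjamini-Hochberg method over all tested genes. In WT oocytes *Zscan4d* fell from a mean of 307 ± 51.0 at GV to 97.9 ± 5.35 ERCC-scaled counts at MII (SD, n = 2), a log2 fold change of -1.65 ± 0.61 (SE, adjusted p = 0.0252). It was the only one of 4 tested members that passed, against 30.5% of 18816 tested genes called lower, so the members' share was near that of all genes. The log2 fold change was -1.15 ± 0.51 for *Zscan4c* (adjusted p = 0.0724), -1.54 ± 0.96 for *Zscan4f* (adjusted p = 0.233) and -2.19 ± 1.08 for *Zscan4e* (adjusted p = 0.112). The median of the 4 was -1.59 and that of all tested genes -1.06. With TMM scaling all 4 values stayed negative, *Zscan4d* at -0.63 (adjusted p = 0.268), and no member passed. Without either WT GV library, or without either WT MII library, *Zscan4d* did not pass (adjusted p = 0.0601 to 0.388).

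In KO oocytes no member of 6 passed for MII against GV in edgeR or in DESeq2, against 3.28% of 18777 tested genes called in either direction, and 5 of the 6 had an unadjusted p over 0.05. The log2 fold change was -1.35 ± 0.73 for *Zscan4d* (adjusted p = 0.279), -0.95 ± 0.68 for *Zscan4c* (adjusted p = 0.416), -0.56 ± 0.91 for *Zscan4e* (adjusted p = 0.74) and -0.19 ± 0.90 for *Zscan4f* (adjusted p = 0.919). The median of all tested genes was -1.17. With TMM scaling *Zscan4c*, *Zscan4e* and *Zscan4f* turned positive, at 0.43, 0.97 and 1.39, and *Zscan4d* was -0.10. *Zfp352*, at 0 in both KO GV libraries and at 13 and 15 raw counts at MII, entered only through those MII counts, so its p is not read. *Zscan4b* had 26 and 0 raw counts at GV and 22 and 10 at MII (adjusted p = 0.842).

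With both genotypes in a model, *Zscan4d* was lower at MII by a log2 fold change of -1.50 ± 0.40 (SE, 4 libraries a stage, adjusted p = 0.0167), and was the 1 member of 6 that passed, against 28% of 20807 tested genes called lower. *Zscan4c* was at -1.05 ± 0.37 (adjusted p = 0.0565), *Zscan4e* at -1.33 ± 0.68 (adjusted p = 0.161) and *Zscan4f* at -0.85 ± 0.63 (adjusted p = 0.329). The median of all tested genes was -1.23, so all 4 copies were within 0.5 of it. With TMM scaling *Zscan4d* was at -0.30 (adjusted p = 0.536), and the other 3 turned positive, at 0.16 for *Zscan4c*, 0.09 for *Zscan4e* and 0.46 for *Zscan4f*, where the median of tested genes was -0.20. Leaving out WT GV replicate 2, WT MII replicate 2 or KO GV replicate 1 lost the call, with adjusted p-values for *Zscan4d* of 0.0554, 0.0589 and 0.123.

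The GV to MII change was then compared between genotypes directly. No gene of 20807 passed (0%), members included, although 1197 had an unadjusted p under 0.05, none of them a member, and DESeq2 called 91 genes in one direction and 63 in the other, again no member. The KO change minus the WT change was 1.61 ± 1.26 for *Zscan4e*, 1.36 ± 1.21 for *Zscan4f*, 0.29 ± 0.83 for *Zscan4d* and 0.20 ± 0.79 for *Zscan4c* on the log2 scale (SE, 2 libraries a group). These errors leave room for a sizeable difference in either direction for *Zscan4d* and *Zscan4c*.

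From GV to GVBD no member passed in either genotype, with an unadjusted p under 0.05 for 0 members and no member called by DESeq2. In WT 0.0511% of 19566 tested genes were called in either direction, and in KO 0.22% of 19064. In WT the log2 fold change was 0.44 ± 0.44 for *Zscan4d*, 0.82 ± 0.70 for *Zscan4e*, 0.80 ± 0.72 for *Zscan4f* and 0.04 ± 0.39 for *Zscan4c*. In KO the values were -0.19 ± 0.48 for *Zscan4d*, 0.15 ± 0.66 for *Zscan4e*, 0.54 ± 0.51 for *Zscan4f* and 0.06 ± 0.45 for *Zscan4c*. Each was close to or within its standard error of 0.

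**Figure D4:**
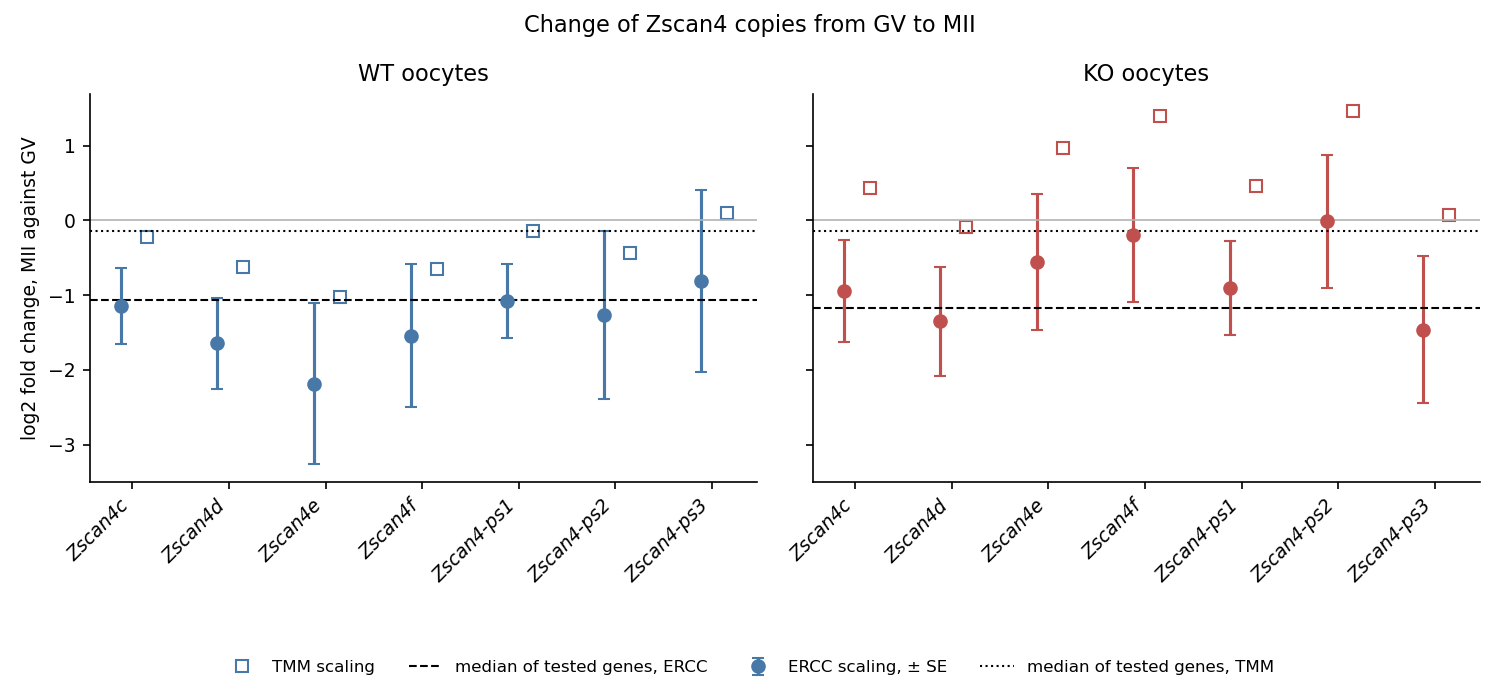
Log2 fold change from GV to MII (y axis) of 4 members and 3 pseudogene-named relatives in WT (left) and KO (right). Filled points with bars give ERCC scaling ± SE, open squares TMM scaling, and the dashed and dotted lines the median of all tested genes under each scaling (-1.06 and -0.14 in WT). In KO, *Zscan4c*, *Zscan4e* and *Zscan4f* are below 0 with ERCC scaling and above 0 with TMM scaling.

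The rest of the family offered a comparison within the cluster. *Zscan4-ps1*, annotated as protein-coding in GENCODE M21 despite its name, had 889 ± 186 ERCC-scaled counts per kb in WT GV oocytes against 533 ± 110 for *Zscan4c*, and 87.4% of its 150-base windows were unique. Its raw counts were 1287 to 1660 in WT libraries and 1033 to 2549 in KO libraries, and the ratio of mean ERCC-scaled counts was 1.44. Per 100 counts of *Zscan4c* it had 135 to 158 in WT and 85.4 to 133 in KO, so relative to this copy it stood lower in KO where *Zscan4d* stood higher. *Zscan4-ps3*, with a ratio of 4.61, and *Zscan4-ps2*, with 3.30, were nearer to *Zscan4e*, at 9 to 28 and 11 to 68 raw counts in WT libraries. Of 7 relatives listed, 6 were tested over all stages and 1, *Zscan4-ps3*, was called higher in KO, against 0.9% of 22004 tested genes. *Tdpoz1* had 12 to 72 raw counts over the 12 libraries, and *Tdpoz2* had 0 in all. From GV to MII over both genotypes 0 of 6 tested relatives passed in edgeR or in DESeq2, with 1 of 6 at an unadjusted p under 0.05 and 28% of tested genes called lower, *Zscan4-ps1* at -0.99 ± 0.32 having an adjusted p of 0.0415 but a change under the minimum of 1, and *Zscan4a*, annotated as a pseudogene, standing highest at 2.31 ± 1.47 (adjusted p = 0.259).

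Activators of the 2-cell programme were present in part. *Duxf3*, the annotated *Dux* copy in the table, had 4 and 12 raw counts in the KO GVBD libraries and 0 in the other 10 libraries. *Dppa3*, a maternal factor that protects the zygotic genome, reached 215721 to 568322 raw counts. Between genotypes edgeR called 0 of 8 tested activators, against 0.9% of 22004 tested genes called higher in KO. The unadjusted edgeR p was under 0.05 for 4 of the 8, and for 4146 of the 22004. DESeq2 called 1 activator higher in KO, *Klf17*. The DESeq2 share over all genes is not given here for this contrast, so its calls have no background beside them. From GV to MII over both genotypes 3 of 8 fell, against 28% of tested genes called lower: *Dppa4* with a log2 fold change of -1.82 ± 0.40 (adjusted p = 0.0072), *Duxbl1* with -1.75 ± 0.39 (adjusted p = 0.00746) and *Dppa2* with -1.07 ± 0.35 (adjusted p = 0.0398). With TMM scaling they were at -0.85, -0.74 and -0.07, under the minimum of 1, and none was called. *Klf17*, a zinc finger factor of the oocyte and early embryo, stood at 0.94 ± 0.30, *Nelfa* at -0.31 ± 0.37 and *Tbx3* at -0.33 ± 0.80, none of them called with ERCC scaling, but with TMM scaling *Klf17* was called higher at 1.99 (adjusted p = 0.000223). The median of the 8 was -0.72 with ERCC and 0.38 with TMM scaling, against -1.23 and -0.20 for all tested genes.

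Repressors of the programme were expressed throughout, 15 of 16 with at least 10 counts in every library. Between genotypes edgeR called 0 of the 16, with an unadjusted p under 0.05 for 4, against 4146 of 22004 tested genes. DESeq2 called 1 of the 16 higher in KO, *Trim28*, again without a share over all genes beside it. The median of their log2 ratios of KO to WT means was 0.23. *Trim28*, the scaffold of silencing by KRAB zinc finger proteins, had the largest ratio of the 16, 2.08. From GV to MII over both genotypes 2 of 16 fell, against 28% of tested genes called lower, both subunits of the histone chaperone CAF-1: *Chaf1b* with a log2 fold change of -3.18 ± 0.41 (adjusted p = 0.000458) and *Chaf1a* with -1.96 ± 0.56 (adjusted p = 0.0239). With TMM scaling *Chaf1b* was still called at -2.18 and *Chaf1a* was not, at -1.12 (adjusted p = 0.0559). *Ehmt2*, a histone H3 lysine methyltransferase, was at -2.26 ± 1.12 (adjusted p = 0.153). At the other end *Dnmt1*, the maintenance DNA methyltransferase, was at 0.19 ± 0.38, *Ehmt1* at 0.12 ± 0.41 and *Uhrf1* at -0.12 ± 0.40, and with TMM scaling *Dnmt1* at 1.14 (adjusted p = 0.00394) and *Ehmt1* at 1.09 (adjusted p = 0.00534) were called higher. The median of the 16 was -0.38 with ERCC and 0.63 with TMM scaling.

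Other transcripts of the 2-cell stage were mostly scarce. Of 29 in the list, 9 had at least 10 counts in every library, 3 never exceeded 3 counts and 17 could be tested over all stages. Between genotypes edgeR called 0 of the 17, with an unadjusted p under 0.05 for 9, against 4146 of 22004 tested genes. DESeq2 called 6 of the 17 higher in KO (*Usp17lb*, *Pramef8*, *B020031M17Rik*, *Ddit4l*, *Lmx1a* and *Arg2*). Its share over all genes is not given here, so the 6 of 17 cannot be read as more than usual. The median log2 ratio of KO to WT means of the 17 was 1.15, with 15 of 17 above 0, where the 6 tested members, *Zfp352* included, had 2.07. On the scale of the fitted log2 difference, the medians were 1.38 for the 17, 2.25 for the 6 members and 0.29 for all tested genes. *Pramef25*, at 0 to 10 raw counts in WT and 4 to 36 in KO, had the largest ratio, 11.4, and *Tcstv1*, among the abundant ones, had 7666 to 10434 raw counts in WT and 9852 to 15842 in KO. From GV to MII over both genotypes 2 of 14 tested fell, against 28% of tested genes called lower, *Arg2*, the mitochondrial arginase, with -3.38 ± 0.50 (adjusted p = 0.000895) and *Pramef8* with -1.40 ± 0.36 (adjusted p = 0.015). With TMM scaling *Arg2* was still called at -2.45 and *Pramef8*, at -0.37, was not. Beyond these, *Ddit4l* was at -3.34 ± 1.46, *Lmx1a* at -1.72 ± 0.67, *Sp110* at -0.14 ± 0.38, *Gm12794* at 0.36 ± 0.81 and *Pramef25* at 1.28 ± 1.63, and edgeR called none of these, while DESeq2 called *Ddit4l* and *Lmx1a* lower.

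**Figure D5:**
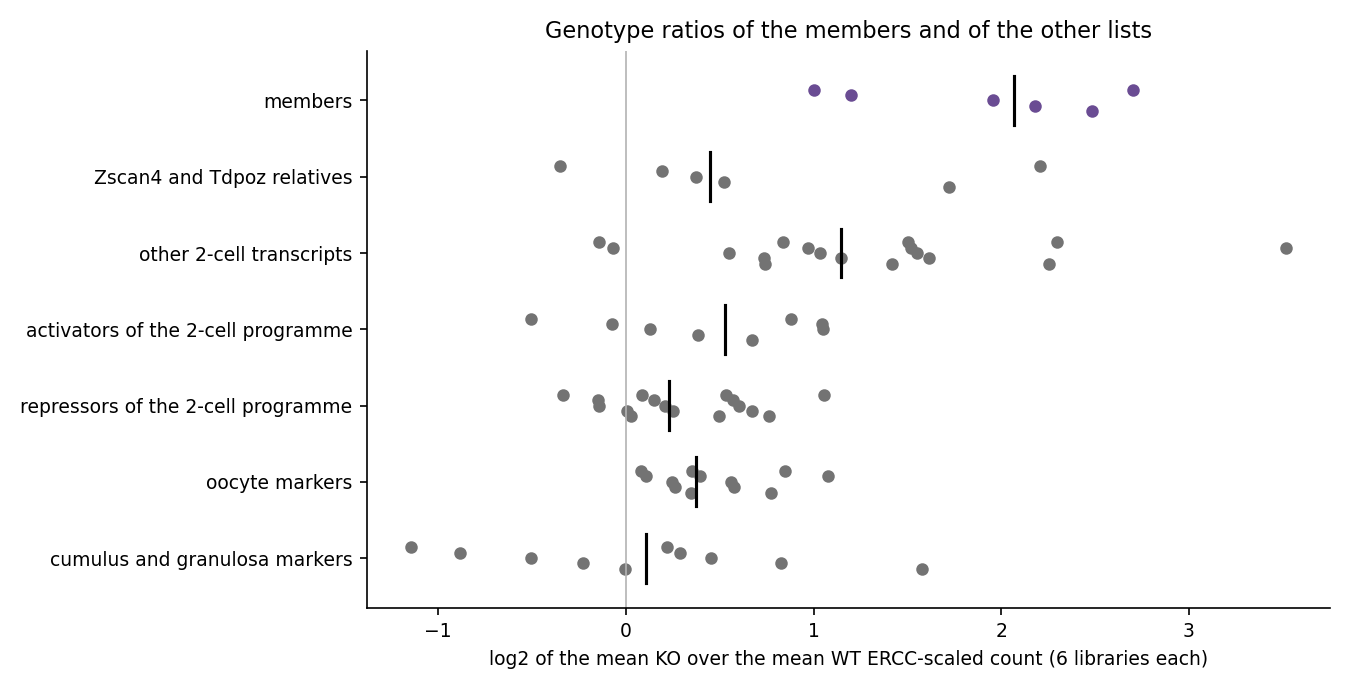
Log2 of the mean KO over the mean WT ERCC-scaled count, 6 libraries each (x axis), for the tested genes of each list (y axis). Each point is a gene and each vertical line the list's median. The members, selected on this contrast and with *Zfp352* among them, have a median of 2.07, the other 2-cell transcripts 1.15 and the repressors 0.23.

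Profiles over the 12 libraries were compared by the root mean square difference of centred log2(ERCC-scaled count + 0.5) values, among 22004 genes. The profiles most like *Zscan4e* were *Zscan4d* (0.68), *Zscan4f* (0.74), *Gm8424* (0.80), the gene ENSMUSG00000119807 (0.85) and *Gm44550* (0.86), where the median over all genes was 1.91. *Zscan4c* ranked 164 in likeness to *Zscan4e* at 1.19, and *Zscan4-ps1* ranked 1158 at 1.41. The copies share sequence, so likeness among them is not independent. The gene most like the summed *Zscan4* members was *Zscan4c* (0.24), which makes up most of that sum, so its place was set in advance. After it came *Rnf103* (0.38), *A530046M15Rik* (0.41), *Mgat4d* (0.42) and *Prkcb* (0.42), against a median of 1.19.

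Of 12 oocyte markers all had at least 10 counts in every library, and their summed ERCC-scaled counts were 414873 to 878932 in WT and 572868 to 1003486 in KO. The summed ERCC-scaled counts of cumulus and granulosa markers, 13 of 14 of which were detected, were 784 to 1610 in WT and 1704 to 3007 in KO, and most of the mean sum in each group was *Cyp19a1*. Of the 10 tested markers 5 had a log2 difference of KO to WT above 0, with a median of 0.16 with ERCC and -0.13 with TMM scaling. Among the 10, edgeR called 0, with an unadjusted p under 0.05 for 2, against 4146 of 22004 tested genes. DESeq2 called 1 of the 10, *Fshr*, higher in KO, again without a share over all genes beside it. Of the 14, *Amh*, *Amhr2* and *Foxl2*, named after their values were seen, had 0 to 5 counts in every library. By contrast, 3 of the 14 had at least 10 counts in every library. The part of somatic cells in the *Zscan4* values was not tested.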

How the data were processed

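By the study's methods, the authors removed adapters (Cutadapt), mapped reads to GRCm38 and the ERCC sequences (Hisat2), and kept unique alignments. The deposited values are raw counts per gene, without normalization. The extraction protocol of the labels differs from that of the methods, and the step that made whole-number counts and the use of strand are not given in the sources used here. Symbols matched 52073 of 56691 identifiers (91.9%).

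Each comparison used edgeR 4.0.16 (R 4.3.3), two-sided, on the groups it names, with library sizes in proportion to ERCC counts and filterByExpr on total counts. Calls needed a Benjamini-Hochberg adjusted p under 0.05 and an absolute log2 fold change of at least 1. Standard errors came from the F statistic. The code was tested on simulated data. The study describes the 2 libraries of each group as independent biological samples. With PCR and no molecular identifiers, counts are not independent molecules. Members, lists and tests were chosen with earlier results of these data known. Genes named are the members and, per list, up to 3 highest and 3 lowest changes from GV to MII, the 5 most similar profiles, *Alkbh5*, and genes chosen after their values were seen (*Pramef8*, *Trim28*, *Tcstv1*, *Duxf3*, *Dppa3*, *Gm7789*, *Usp17lb*, *B020031M17Rik*, *Fshr*, *Cyp19a1*, *Amh*, *Amhr2*, *Foxl2*, and relatives of the cluster). The alternatives tried were scaling by TMM or by median of ratios, 2 other filters, DESeq2 1.42.0, all 12 libraries in a model, a replicate block, leaving out each library, and, added later, filterByExpr on ERCC-based sizes. Transcript windows and GGACT were counted in GENCODE M21 transcripts.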

Additional observations from a re-analysis of the deposited data

How the results depend on the processing

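The number of members called for MII against GV, 1 in WT and 1 over both genotypes, was 0 in both with TMM and with median-of-ratios scaling, and 2 in both without a filter on low counts and with DESeq2. Over both genotypes it was also 2 with at least 10 counts in every library and with all 12 libraries in a model. The share of all genes called in each of these settings is not given here. The counts therefore show how far the calls depend on the setting, and are not a result about the members. Wherever 2 were called they were *Zscan4d* and *Zscan4c*, both lower, except in WT without the filter. There *Zscan4d* was called lower and *Zscan4b*, near the limit of detection, was called higher. Leaving out each library in turn gave a *Zscan4d* log2 fold change of -1.81 to -1.47 in WT and -1.95 to -0.30 in KO. Over both genotypes, 0 to 2 members were then called, while all genes called ran from 3379 to 7106. For the selecting contrast of KO against WT, 1 to 3 members were called, where the full set gave 3. All genes called there ran from 63 to 918. Those calls describe the contrast that selected the members and carry no test. No alternative called a member for GVBD against GV or for the difference between genotypes in the change to MII. Equal replicate numbers did not mark paired libraries. Correlations of deviations were -0.05 to 0.08 within the stage comparisons, and -0.22 to 0.24 over all pairs of groups. With the replicate block the members called were 1 in WT, 1 over both genotypes and 0 in KO. For KO against WT they were 4, which again is a description of the selecting contrast. The block took genes called for MII against GV in KO from 616 to 2454 lower and 8 higher, and filterByExpr on ERCC-based sizes took them to 222 lower and 0 higher. No call of a member reversed under these alternatives. With 2 libraries a group, members with counts as low as those of *Zscan4b* could not be resolved.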
